A study of Homo sapiens with 8 samples.

Results

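The coenzyme Q and dolichol synthesis genes are 10 genes of 2 branches that leave the mevalonate pathway after isopentenyl diphosphate and farnesyl diphosphate. They were PDSS1, PDSS2, COQ2, COQ3, COQ5, COQ6, COQ7, COQ8A and COQ9 for coenzyme Q, and DHDDS for dolichol, out of 22428 genes that the identifiers on the array named. They were chosen by function, through the RefSeq accession that each probe carries, and each gene was read from the probe with the highest mean level over all arrays. RNA came from OVSAHO and KURAMOCHI, both established ovarian cancer cell lines, each cultured with simvastatin or with L-778123, and was hybridized with a single dye to 8 arrays, 2 per group. Simvastatin is a statin, which blocks the mevalonate pathway near its start, and L-778123 blocks the farnesyl transferase and the geranylgeranyl transferase that attach prenyl groups to proteins. The study set the drugs against each other to look for effects of the statin other than on protein prenylation. Arrays of untreated cells are not part of the comparison, so every drug difference is simvastatin relative to L-778123 and does not show which drug moved a gene. The doses and times of these cultures are not given in the sources used here, and nothing in the labels says that the 2 arrays of a group came from separate cultures, so that p-values measure only the spread between these arrays.

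Coenzyme Q is a redox lipid of membranes, made of a benzoquinone ring and a long isoprenoid tail, that carries electrons in the mitochondrial respiratory chain. PDSS1 and PDSS2 build the tail, COQ2 joins it to the ring precursor, and the remaining COQ proteins modify the ring or hold the enzymes together on the inner mitochondrial membrane. Dolichol is a longer isoprenoid made in the endoplasmic reticulum by a cis-prenyltransferase of which DHDDS is the catalytic subunit, and its phosphate carries the sugars used for N-linked glycosylation of proteins.

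Each level below is a log2 intensity that was scaled to the 75th percentile of the array, so that 0 is the level of that percentile and 1 unit is 2-fold. Levels are not compared between genes, since probes differ in brightness. All 10 genes were well above background on all 8 arrays. Across the arrays the 75th percentile of intensity was 324 to 437, 51.8% to 57.5% of probes were well above background, no spot was saturated, and the arrays of a group correlated at r = 0.995 to 0.996. The 8 serous epithelial markers (PAX8, WT1, MUC16, EPCAM, KRT7, KRT8, KRT18 and MSLN) were well above background on all arrays. The log2 of their summed scaled intensities, to which the brightest genes contribute most, was 8.98 to 9.01 in OVSAHO with simvastatin against 9.27 to 9.37 with L-778123. In KURAMOCHI it was 8.43 to 8.49 against 9.31 to 9.36. At an adjusted p under 0.05 (limma), 4 of the 8 rose and 2 fell with simvastatin in OVSAHO, where 26.4% of all genes rose and 27.5% fell. In KURAMOCHI 2 of the 8 rose and 4 fell, where 17% of all genes rose and 18.4% fell. Among the 8 were MUC16 (log2 difference 2.17 in OVSAHO and -0.99 in KURAMOCHI) and KRT8 (-1.32 in KURAMOCHI). Among 8 markers of blood, vessel and stromal cells, PTPRC, CD14 and VWF were above background on all arrays, CD3E and COL1A1 on some, and PECAM1, DCN and LUM on none. The log2 of the summed scaled intensities of those 8 was -0.78 to -0.64 in OVSAHO with simvastatin and 0.21 to 0.24 with L-778123. It was 0.23 to 0.39 in KURAMOCHI with simvastatin and 0.36 with L-778123. The log2 difference of VWF between simvastatin and L-778123 was -3.30 in OVSAHO, lower with simvastatin. The part of both marker lists in the results was not tested. All arrays lay on 1 slide, with each line and each drug at its own positions, which means that a position effect and a group difference cannot be told apart. In RNA of whole cultures, fewer cells expressing a gene and less of its RNA per cell cannot be told apart.

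With simvastatin, the genes that build the coenzyme Q tail and attach it to the ring lay mostly below their levels with L-778123, and COQ7 and COQ8A lay above them. In OVSAHO, 9 of the 10 genes passed the test (an adjusted p under 0.05 in limma, with Benjamini-Hochberg adjustment over all probes), where 53.9% of the 16955 named genes and 48.1% of the 33753 probes did so. Of these, 6 fell (PDSS1, PDSS2, COQ2, COQ3, COQ6 and COQ9) and 3 rose (COQ7, COQ8A and DHDDS), with 27.5% of all genes lower and 26.4% higher. In KURAMOCHI, 8 passed, where 35.4% of genes and 31.4% of probes did so. There 6 fell (PDSS1, COQ2, COQ3, COQ5, COQ6 and DHDDS) and 2 rose (COQ7 and COQ8A), with 18.4% of all genes lower and 17% higher. PDSS1, COQ2, COQ3 and COQ6 were lower with simvastatin in both lines, as were 12.5% of all genes, and COQ7 and COQ8A were higher in both, as were 10.6%. The median log2 difference of the 10 genes was -0.40 in OVSAHO, against 0.014 over all genes, and -0.23 in KURAMOCHI, against 0.011. The 2 drug contrasts share no arrays.

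The stretches before the transcription start are given for PDSS1 and COQ2, which fell in both lines, and for COQ7 and COQ8A, which rose in both. They are the 250 bases upstream of the start from RefSeq (GRCh38.p14), which held an entry for 9 of the 10 genes and none for COQ3. Capitals mark matches to the CCAAT box (CCAAT) or the GC box (GGGCGG), read on either strand and written 5′ to 3′ along the strand of the gene.
PDSS1, chr10:26697451-26697700, plus strand: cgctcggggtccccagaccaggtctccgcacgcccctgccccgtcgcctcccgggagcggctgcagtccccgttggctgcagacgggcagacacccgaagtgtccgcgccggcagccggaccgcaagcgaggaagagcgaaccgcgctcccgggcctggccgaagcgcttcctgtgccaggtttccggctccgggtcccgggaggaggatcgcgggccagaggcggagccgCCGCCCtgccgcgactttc
COQ2, chr4:83284799-83285048, minus strand: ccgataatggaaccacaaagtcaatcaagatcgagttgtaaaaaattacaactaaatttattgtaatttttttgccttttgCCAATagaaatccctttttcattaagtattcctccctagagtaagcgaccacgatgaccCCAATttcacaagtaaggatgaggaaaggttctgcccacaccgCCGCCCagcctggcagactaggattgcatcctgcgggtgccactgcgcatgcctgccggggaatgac
COQ7, chr16:19067364-19067613, plus strand: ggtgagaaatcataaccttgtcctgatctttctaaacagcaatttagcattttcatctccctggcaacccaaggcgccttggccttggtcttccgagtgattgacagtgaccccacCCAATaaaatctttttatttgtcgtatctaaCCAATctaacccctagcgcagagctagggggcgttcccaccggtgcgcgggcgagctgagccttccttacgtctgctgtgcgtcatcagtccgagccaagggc
COQ8A, chr1:226940044-226940293, plus strand: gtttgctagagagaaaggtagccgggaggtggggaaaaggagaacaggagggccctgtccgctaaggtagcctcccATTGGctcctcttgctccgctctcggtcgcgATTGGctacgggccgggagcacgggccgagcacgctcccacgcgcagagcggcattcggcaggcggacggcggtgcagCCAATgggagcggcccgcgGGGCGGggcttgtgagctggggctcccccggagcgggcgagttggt

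The CCAAT box matched in 3 of the 9 windows, with 2 matches each in COQ2 and COQ7 and 3 in COQ8A, and 32% of 35116 RefSeq windows of this length held it. Both COQ7 and COQ8A, which rose, and COQ2, which fell, therefore hold these letters. The GC box matched in 6 of 9 (PDSS1, PDSS2, COQ2, COQ8A, COQ9 and DHDDS), against 42.6% of all windows. The sterol regulatory element (TCACNCCAC) matched only in COQ5, against 0.883% of all windows, and the NRF1 motif only in DHDDS, against 5.07%. The E2F motif (TTTGGCGC or TTTCGCGC, 0.968% of windows) and the ETS motif (CCGGAAG, 8.52%) were found in none of the 9. All motifs were read on both strands, and a match is a description of letters and not of a bound site.

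PDSS1 encodes the subunit of decaprenyl diphosphate synthase that, with PDSS2, lengthens the tail of coenzyme Q, and it had the widest difference of the 10 genes in both lines. Its level was 1.59 and 1.47 on the OVSAHO arrays with simvastatin and 3.16 and 2.99 with L-778123. In KURAMOCHI it was 2.06 and 2.02 with simvastatin and 3.10 and 3.01 with L-778123. The levels with simvastatin lay below all levels with L-778123 in each line, and the 4 arrays with L-778123 overlapped between lines. The difference was -1.55 in OVSAHO (SE 0.083, adjusted p = 9.51e-05, limma), which is 2.92-fold lower with simvastatin, and -1.01 in KURAMOCHI (SE 0.083, adjusted p = 0.000849), which is 2.02-fold lower. A further probe to the same accession, NM_014317, gave -1.46 and -0.97, with adjusted p of 7.02e-05 and 0.000587.

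PDSS2, the partner subunit of that enzyme, moved with drug in OVSAHO. Its level there was 0.75 and 0.82 with simvastatin and 1.57 and 1.44 with L-778123. In KURAMOCHI it was 0.81 on both arrays with simvastatin, and 0.89 and 0.83 with L-778123. The OVSAHO arrays with L-778123 thus stood above the other 6, which lay within 0.75 to 0.89. The difference was -0.72 in OVSAHO (SE 0.069, adjusted p = 0.000619, limma), or 1.65-fold lower with simvastatin, and -0.051 in KURAMOCHI, with a 95% interval of -0.22 to 0.12 and an adjusted p of 0.617. The other PDSS2 probe, to the same accession NM_020381, disagreed. It gave -0.11 in OVSAHO (adjusted p = 0.478) and 0.19 in KURAMOCHI (adjusted p = 0.282), with arrays of 0.46 and 0.16 in OVSAHO with L-778123, so that the fall of PDSS2 rests on its brightest probe.

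COQ2 encodes the prenyltransferase that links the finished tail to 4-hydroxybenzoate. Its level was -0.29 and -0.37 in OVSAHO with simvastatin and 0.27 and 0.32 with L-778123, and in KURAMOCHI -0.83 and -0.87 against -0.21 and -0.13. Simvastatin arrays lay below L-778123 arrays in each line, and both KURAMOCHI groups lay below the OVSAHO groups of the same drug. The log2 difference was -0.63 in OVSAHO (SE 0.063, adjusted p = 0.000759, limma) and -0.68 in KURAMOCHI (adjusted p = 0.00125), which are 1.54-fold and 1.61-fold lower with simvastatin.

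**Figure D1:**
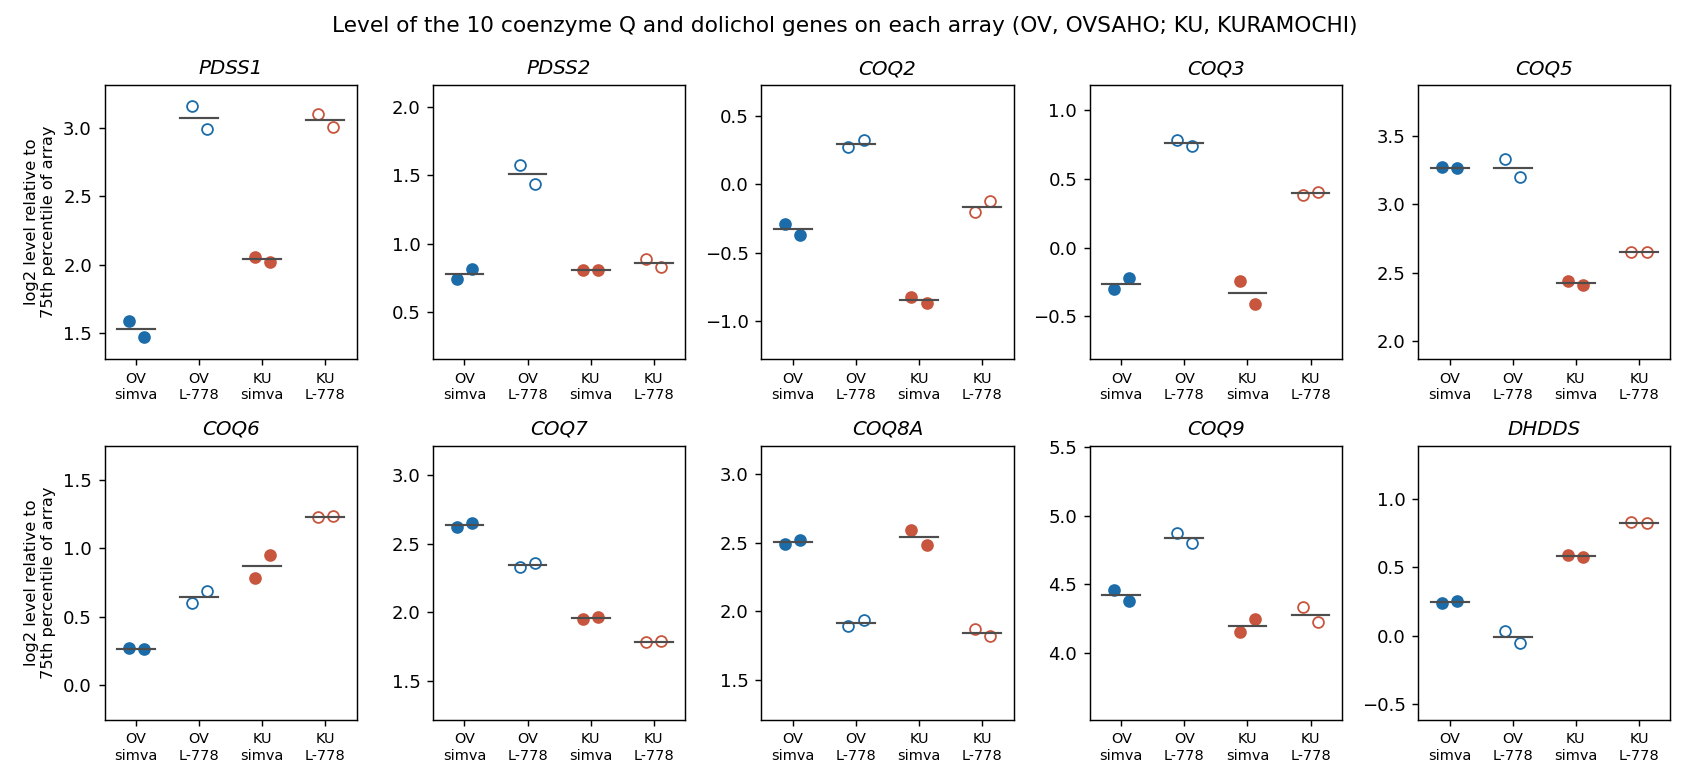
Level of each of the 10 genes on every array, as log2 intensity relative to the 75th percentile of the array (vertical axis), for OVSAHO and KURAMOCHI with simvastatin or L-778123. Points are single arrays, 2 per group, filled for simvastatin and open for L-778123, and bars are group means. PDSS1 lies between 1.47 and 2.06 with simvastatin and between 2.99 and 3.16 with L-778123, while COQ8A lies higher with simvastatin in both lines.

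COQ3 encodes the O-methyltransferase of the ring. Its level was -0.30 and -0.23 in OVSAHO with simvastatin against 0.78 and 0.74 with L-778123, and -0.25 and -0.41 in KURAMOCHI with simvastatin against 0.38 and 0.41 with L-778123. The simvastatin arrays of both lines overlapped, and the arrays with L-778123 stood higher in OVSAHO than in KURAMOCHI. COQ3 was 2.03-fold lower with simvastatin in OVSAHO (log2 difference -1.02, SE 0.074, adjusted p = 0.000245, limma) and 1.65-fold lower in KURAMOCHI (-0.73, adjusted p = 0.00173). With PDSS1 it was the only gene of the 10 to reach the 2-fold limit of the study's methods in OVSAHO, as did 11.6% of all genes, and PDSS1 alone reached it in KURAMOCHI, as did 5.38%. COQ3 in OVSAHO and PDSS1 in KURAMOCHI stood near that limit. COQ3 missed it without OVSAHO simvastatin array 1 (-0.99), as did PDSS1 in KURAMOCHI without KURAMOCHI simvastatin array 2 (-0.997) or L-778123 array 1 (-0.97).

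COQ5, the C-methyltransferase of the ring, had levels of 3.27 and 3.26 in OVSAHO with simvastatin and 3.33 and 3.20 with L-778123. These overlapped, and the difference was -0.00061, with a 95% interval of -0.16 to 0.15 (adjusted p = 0.995, limma). In KURAMOCHI the arrays with simvastatin read 2.44 and 2.41 and those with L-778123 read 2.65 and 2.65. That difference of -0.22, or 1.17-fold lower, had an adjusted p of 0.0427, while the other COQ5 probe gave -0.14 with an adjusted p of 0.196. By the analysis of variance with Tukey's test, the brightest probe did not pass in KURAMOCHI (adjusted p = 0.123). The call for COQ5 was also lost when any KURAMOCHI array or either OVSAHO array with simvastatin was left out, with adjusted p of 0.0714 to 0.153 and differences of -0.24 to -0.21.

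The hydroxylases of the ring moved in opposite directions. COQ6, a flavin-dependent monooxygenase, read 0.27 and 0.26 in OVSAHO with simvastatin against 0.60 and 0.69 with L-778123, and 0.79 and 0.95 in KURAMOCHI against 1.23 and 1.23. It was 1.30-fold lower with simvastatin in OVSAHO (log2 difference -0.38, adjusted p = 0.00899, limma) and 1.28-fold lower in KURAMOCHI (-0.36, adjusted p = 0.0171). By the analysis of variance with Tukey's test, COQ6 passed in neither line (adjusted p = 0.0577 in OVSAHO and 0.0985 in KURAMOCHI). In KURAMOCHI it also failed in limma with no filter on dim probes (adjusted p = 0.0649) and with only the arrays compared (0.0561). The KURAMOCHI call was lost without KURAMOCHI simvastatin array 1, L-778123 array 1 or L-778123 array 2, with adjusted p of 0.0688 to 0.0730.

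COQ7, a di-iron hydroxylase that acts late in the route, read 2.62 and 2.65 in OVSAHO with simvastatin against 2.33 and 2.36 with L-778123. In KURAMOCHI it read 1.95 and 1.97 with simvastatin against 1.78 and 1.79 with L-778123. The groups did not overlap in either line, and the lines stood farther apart than the drugs. COQ7 was 1.22-fold higher with simvastatin in OVSAHO (log2 difference 0.29, SE 0.051, adjusted p = 0.00576, limma) and 1.13-fold higher in KURAMOCHI (0.17, adjusted p = 0.0492). The KURAMOCHI call stood at the threshold and was lost when any 1 of the 8 arrays was left out, with adjusted p of 0.0640 to 0.166 and differences of 0.17 to 0.18.

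COQ8A encodes an atypical kinase of the coenzyme Q assembly on the inner mitochondrial membrane. Its level was 2.49 and 2.52 in OVSAHO with simvastatin against 1.89 and 1.94 with L-778123, and 2.60 and 2.48 in KURAMOCHI against 1.87 and 1.82. The lines overlapped with simvastatin, and each simvastatin array stood above each L-778123 array. COQ8A was 1.51-fold higher with simvastatin in OVSAHO (log2 difference 0.59, SE 0.064, adjusted p = 0.000969, limma) and 1.62-fold higher in KURAMOCHI (0.69, adjusted p = 0.00123). It was the widest rise among the 10 genes in each line.

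COQ9, a lipid-binding protein that acts with COQ7, read 4.46 and 4.38 in OVSAHO with simvastatin against 4.87 and 4.80 with L-778123. In KURAMOCHI it read 4.15 and 4.24 against 4.33 and 4.22, which overlap. COQ9 was 1.34-fold lower with simvastatin in OVSAHO (log2 difference -0.42, SE 0.072, adjusted p = 0.00554, limma), and its other probe gave -0.42 (adjusted p = 0.00379). In KURAMOCHI the difference was -0.082, with a 95% interval of -0.26 to 0.098 (adjusted p = 0.437), and -0.065 for the other probe (adjusted p = 0.493).

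**Figure D2:**
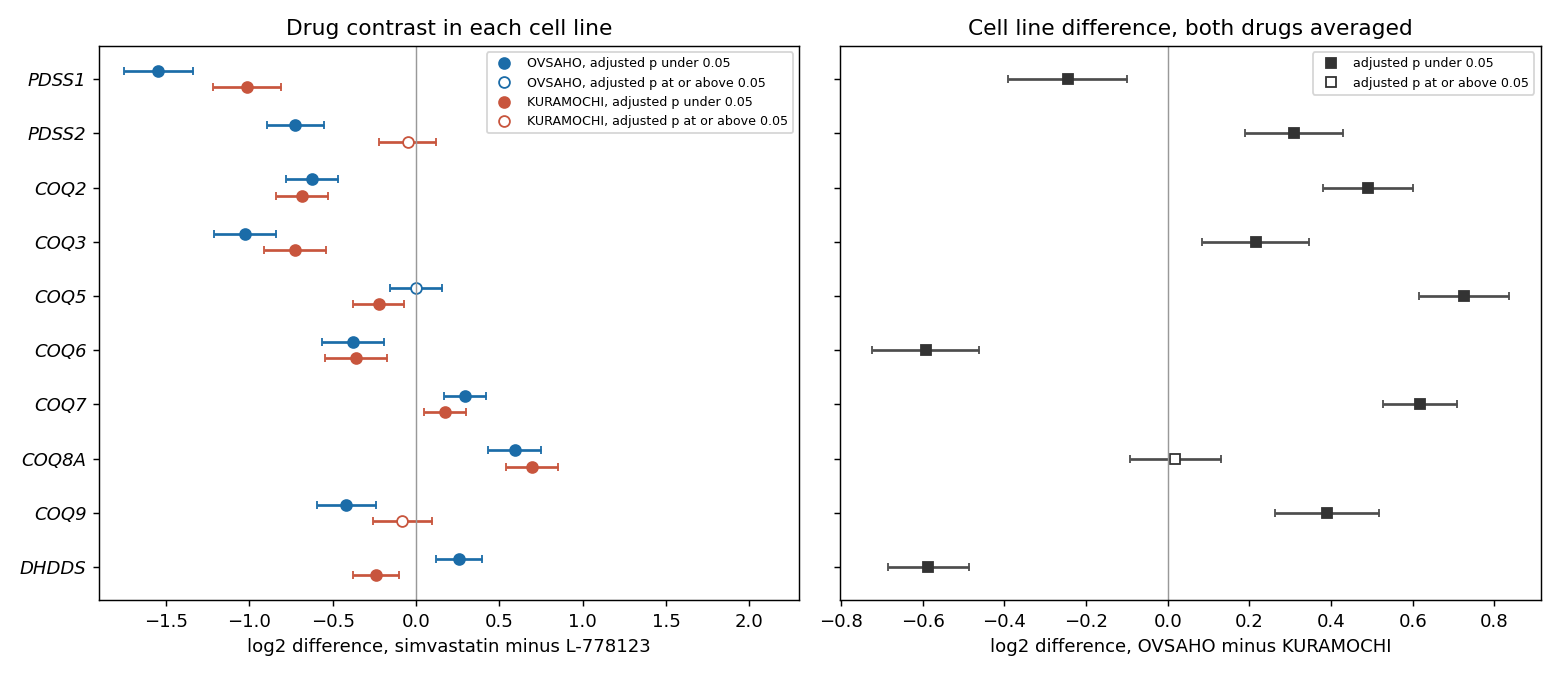
Left, log2 difference of simvastatin against L-778123 for each of the 10 genes in OVSAHO and in KURAMOCHI, and right, log2 difference of OVSAHO against KURAMOCHI averaged over drugs (horizontal axes), with points for the fitted difference and bars for its 95% interval. Filled points passed the test at an adjusted p under 0.05. PDSS1 lies farthest to the left in both lines, at -1.55 and -1.01, COQ8A farthest to the right, at 0.59 and 0.69, and DHDDS changes side between the lines, while on the right COQ5 lies highest at 0.73.

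DHDDS forms the dolichol cis-prenyltransferase with NUS1. Its level was 0.24 and 0.25 in OVSAHO with simvastatin and 0.04 and -0.06 with L-778123. In KURAMOCHI the order turned, with 0.59 and 0.58 with simvastatin against 0.83 and 0.82 with L-778123. DHDDS was 1.2-fold higher with simvastatin in OVSAHO (log2 difference 0.26, SE 0.056, adjusted p = 0.0128, limma) and 1.18-fold lower in KURAMOCHI (-0.24, adjusted p = 0.0252), a pattern of opposite calls that 3.2% of all genes had. The other probe, to a different accession (NM_024887 in place of NM_001243564), gave 0.034 (adjusted p = 0.729) and -0.10 (adjusted p = 0.347). The OVSAHO call was lost without OVSAHO simvastatin array 1 or 2 or L-778123 array 2 (adjusted p of 0.0509 to 0.0568), and the KURAMOCHI call without any 1 of the KURAMOCHI arrays (0.0902 to 0.102).

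**Figure D3:**
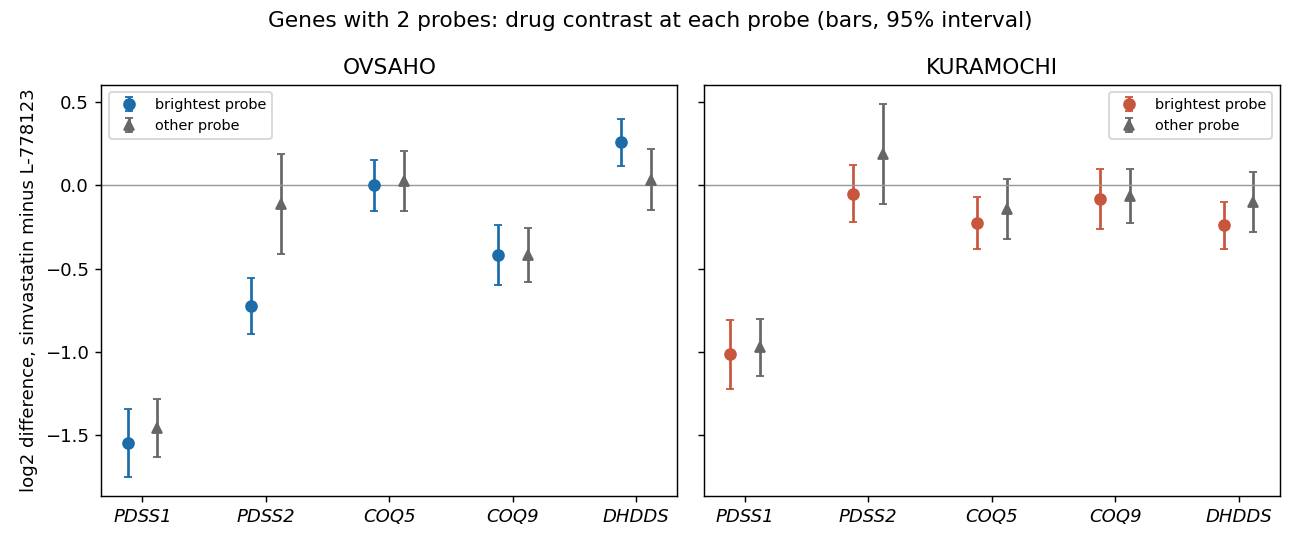
Log2 difference of simvastatin against L-778123 for the 5 genes that have 2 probes on the array (PDSS1, PDSS2, COQ5, COQ9 and DHDDS), with the brightest probe and the other probe side by side for each line and bars for the 95% interval. The probes of PDSS1 and of COQ9 lie close together, while in OVSAHO those of PDSS2 lie at -0.72 and -0.11 and those of DHDDS at 0.26 and 0.034.

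The drug difference itself was compared between the lines, as the OVSAHO difference minus that of KURAMOCHI. It passed the test for 3 of the 10 genes, where 27.4% of all genes and 22.9% of probes passed. It was lower for 2 and higher for 1, against 14% and 13.5% of all genes. For PDSS1 it was -0.53 (SE 0.117, adjusted p = 0.0273, limma), so that simvastatin stood farther below L-778123 in OVSAHO, and the other probe gave -0.49 (adjusted p = 0.0211). For PDSS2 it was -0.67 (SE 0.097, adjusted p = 0.00748), but -0.30 at the other probe (adjusted p = 0.260). For DHDDS it was 0.50 (SE 0.080, adjusted p = 0.0102), but 0.13 at the other probe (adjusted p = 0.404). The PDSS1 call was lost without OVSAHO simvastatin array 2, OVSAHO L-778123 array 1 or any 1 of the KURAMOCHI arrays, with differences of -0.58 to -0.45 and adjusted p of 0.0547 to 0.0821.

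For the other 7 genes the drug difference was not shown to differ between lines. COQ9 gave -0.34, with a 95% interval of -0.59 to -0.082 and an adjusted p of 0.0677 (limma), while its other probe gave -0.35 with an adjusted p of 0.0449. COQ3 gave -0.30 (interval -0.56 to -0.038, adjusted p = 0.0980), and COQ5 gave 0.22 (adjusted p = 0.129). COQ2 gave 0.057 (interval -0.16 to 0.28, adjusted p = 0.688) and COQ8A gave -0.10 (interval -0.33 to 0.12, adjusted p = 0.456). COQ6 and COQ7 gave -0.017 and 0.12, with adjusted p of 0.926 and 0.30.

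Averaged over the drugs, 9 of the 10 genes differed between OVSAHO and KURAMOCHI, where 82.9% of all genes and 77.7% of probes did so, with 42.4% higher in OVSAHO and 40.5% lower. COQ5 (log2 difference 0.73, SE 0.044, adjusted p = 1.90e-05, limma), COQ7 (0.62), COQ2 (0.49), COQ9 (0.39), PDSS2 (0.31) and COQ3 (0.22) were higher in OVSAHO. COQ6 (-0.59), DHDDS (-0.59) and PDSS1 (-0.24) were lower. COQ8A gave 0.019, with a 95% interval of -0.093 to 0.13 and an adjusted p of 0.718. None of the 10 differed 2-fold between lines, which 34.8% of all genes did, and the other PDSS2 probe gave -0.18 (adjusted p = 0.105) in place of 0.31.

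The other genes of coenzyme Q biology were read from a list of 7, of which 6 had a probe that passed the filter (FDX2 had none). In OVSAHO 2 of the 6 rose, 1 fell and 3 did not pass, with a median difference of 0.14 against 0.014 over all genes. Of all genes 53.9% passed there, with 26.4% higher and 27.5% lower. FDXR, the ferredoxin reductase that supplies electrons to COQ6, was 0.48 higher with simvastatin (adjusted p = 0.00256, limma), COQ8B, the paralog of COQ8A, 0.28 higher (adjusted p = 0.0268), and HPDL -0.60 (adjusted p = 0.000712). In KURAMOCHI 2 rose and 4 did not pass, with a median of 0.11, where 35.4% of all genes passed, 17% higher and 18.4% lower. Those that rose were COQ4, a ring-modifying protein (0.35, adjusted p = 0.0159), and COQ10A, a coenzyme Q binding protein (0.32, adjusted p = 0.00883). COQ8B lost its call without OVSAHO simvastatin array 1 or 2 or L-778123 array 1 (adjusted p of 0.0879 to 0.0969). COQ4 lost it without any 1 of the KURAMOCHI arrays (0.0513 to 0.0765) and COQ10A without KURAMOCHI simvastatin array 2 (0.0508).

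The 23 genes of dolichol and lipid-linked oligosaccharide synthesis other than DHDDS were mostly lower with simvastatin in OVSAHO. There 18 fell, 1 rose and 4 did not pass, where 27.5% of all genes fell and 26.4% rose. Their median log2 difference was -0.56, against 0.014 over all genes. The widest falls included those of ALG8, a glucosyltransferase (-1.11, or 2.16-fold lower, adjusted p = 0.000145, limma), and ALG3, a mannosyltransferase (-0.85, adjusted p = 0.000493). ALG11, a mannosyltransferase, was 0.33 higher (adjusted p = 0.0371), a call that was lost without OVSAHO simvastatin array 1, either OVSAHO L-778123 array or either KURAMOCHI simvastatin array (0.0629 to 0.156). DHDDS, higher with simvastatin in OVSAHO at its brightest probe, stood on the other side of most of this list in that line. Its other probe gave 0.034 there (adjusted p = 0.729). In KURAMOCHI 9 fell, 2 rose and 12 did not pass, with a median of -0.19, where 18.4% of all genes fell and 17% rose. NUS1, the partner subunit of DHDDS, fell by 0.66 (adjusted p = 0.00229), DOLPP1, a dolichyl diphosphate phosphatase, by 0.61 (adjusted p = 0.00245) and SRD5A3, a polyprenol reductase, by 0.59 (adjusted p = 0.00855), while ALG11 (0.43, adjusted p = 0.0220) and DPM3, a subunit of dolichol phosphate mannose synthase (0.53, adjusted p = 0.00902), rose. The ALG11 call was lost here too, without either KURAMOCHI simvastatin array or L-778123 array 1 (0.0806 to 0.0905). NUS1 gave -0.60 in OVSAHO (adjusted p = 0.00156), a value named after it was seen because NUS1 pairs with DHDDS. The drug difference was lower in OVSAHO than in KURAMOCHI for 9 of the 23 genes and higher for none. Over all genes it was lower for 14% and higher for 13.5%. Fewer of the 23 passed with any 1 of the 8 arrays left out.

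The 9 enzymes of the mevalonate trunk, which lead to the substrates of both branches, were mostly higher with simvastatin. In OVSAHO 5 rose, 1 fell and 3 did not pass, where 26.4% of all genes rose and 27.5% fell. The median log2 difference was 0.23, against 0.014 over all genes. MVD, which makes isopentenyl diphosphate, gave 0.44 (adjusted p = 0.00345, limma) and HMGCS1 0.40 (adjusted p = 0.00308), while FDPS, which makes farnesyl diphosphate, was 1.5-fold lower (-0.58, adjusted p = 0.000700). In KURAMOCHI 8 rose, as did 17% of all genes, and 1 did not pass. Of the 8, 6 rose at least 2-fold, as 2.44% of all genes did. The median of the list was 1.06, against 0.011 over all genes. HMGCS1 was 2.96-fold higher (1.57, adjusted p = 0.000147) and IDI1, the isopentenyl diphosphate isomerase, 2.47-fold (adjusted p = 0.000732). For 7 of the 9 the drug difference was lower in OVSAHO than in KURAMOCHI, and for none was it higher, against 14% and 13.5% of all genes. The 10 genes of the branches had medians of the opposite sign, at -0.40 in OVSAHO and -0.23 in KURAMOCHI.

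A further list held 17 genes of enzymes that pass electrons to or from coenzyme Q, some of them subunits of the same complex. In OVSAHO 4 rose, 11 fell and 2 did not pass, where 26.4% of all genes rose and 27.5% fell. The median log2 difference of the list was -0.42, against 0.014 over all genes. That median was -0.24 when each gene was read from the median of its probes and -0.28 with normexp. The widest rise was that of SQOR, the sulfide oxidoreductase (2.63, or 6.18-fold, adjusted p = 4.93e-05, limma), followed by NQO1, a quinone reductase (0.93, adjusted p = 0.000768), and ETFDH, which takes electrons from fatty acid oxidation (0.68, adjusted p = 0.000297). GPD2, the mitochondrial glycerol phosphate dehydrogenase, fell by 0.80, SDHC, a subunit of complex II, by 0.59 and DHODH, an enzyme of pyrimidine synthesis, by 0.54. In KURAMOCHI 1 rose, 10 fell and 6 did not pass, with a median of -0.25, where 17% of all genes rose and 18.4% fell. SQOR rose there too (0.61, adjusted p = 0.0106), while PRODH, the proline dehydrogenase (-1.09, adjusted p = 0.000338), GPD2 (-0.68, adjusted p = 0.00207) and NQO1 (-0.50, adjusted p = 0.0124) fell. The SQOR call was lost without KURAMOCHI simvastatin array 1 or 2 (0.0504 for both) and the NQO1 call without simvastatin array 1 or L-778123 array 2 (0.0629 to 0.0653). The 11 calls in KURAMOCHI were 5 to 7 without any 1 of its arrays.

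**Figure D4:**
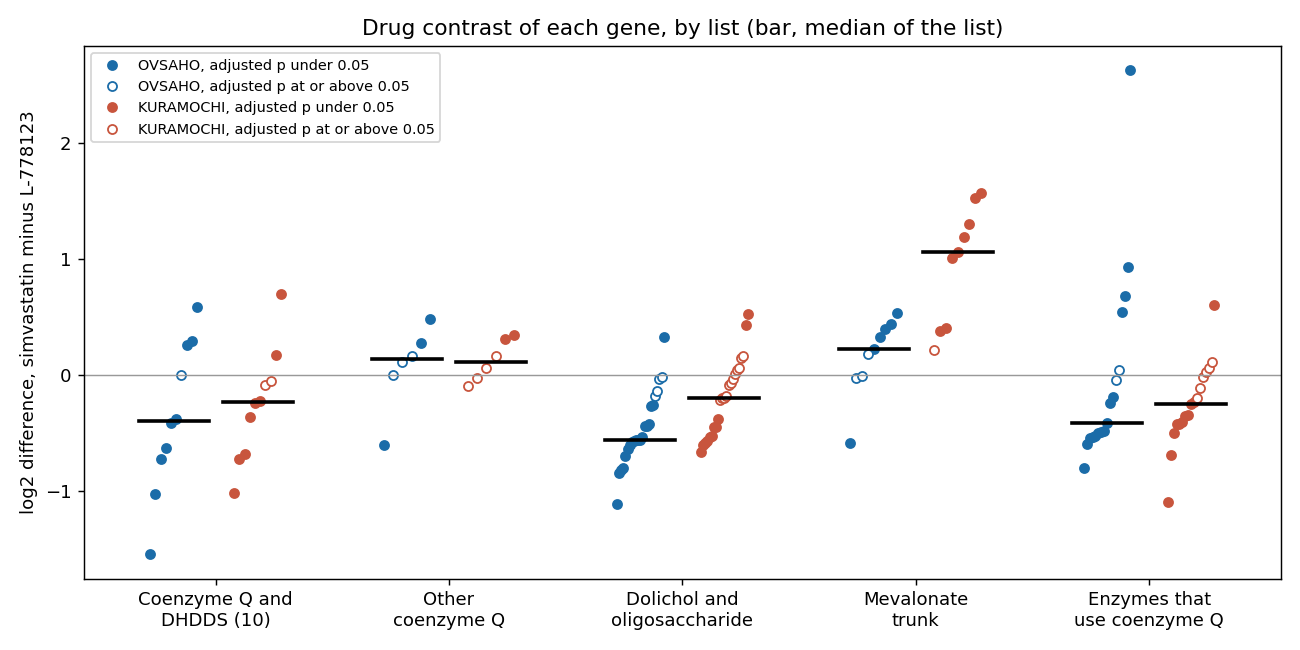
Log2 difference of simvastatin against L-778123 for single genes of the 10 coenzyme Q and dolichol synthesis genes and of the related lists, in OVSAHO and in KURAMOCHI, with a line at the median of each list. Filled points passed the test. The median of the mevalonate trunk is 1.06 in KURAMOCHI and 0.23 in OVSAHO, and the dolichol and oligosaccharide genes lie mostly below 0 in OVSAHO, with a median of -0.56.

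Across the 8 arrays, which fall into 4 groups and are described with no test, PDSS1 had the widest range of group means, from 1.53 to 3.08. The genes whose levels followed it most closely, over all genes with a probe that passed the filter, were DEPDC1B, POLQ, a DNA polymerase, and WDR77, each at a Pearson r of 0.996. Among the 10 genes, PDSS1 and COQ3 correlated at 0.904 and PDSS1 and COQ8A at -0.940. PDSS2 followed COQ9 at 0.913, and COQ6 and COQ7 ran in opposite directions at -0.965. The arrays share their groups in all these pairs, so these values follow from the group means given above.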

How the data were processed

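RNA of 4 groups of 2 arrays, grouped by the labels, was measured on one-color Agilent arrays. The authors extracted the images with Agilent Feature Extraction 11.5.1.1 and deposited a processed signal for every spot, which is an intensity corrected for background within the array but not normalized between arrays. They also deposited a table of processed intensity whose 75th percentile was 384 on every array. Above the median, its sorted log2 values differed between arrays by at most 0.000764, as after quantile normalization, while the methods name the 75th percentile. This table, whose columns correlated with the scanner values at r of at least 0.999, served as an alternative.

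Control spots were dropped, as were 58 to 99 outlier spots on each array, after which 39 of 58201 probes lacked a spot somewhere. Spots of a probe were averaged and log2 values set relative to the 75th percentile over the probes of each array. A probe was kept if some group had it well above background on both arrays. The 33753 kept probes were fitted by lmFit, contrasts.fit and eBayes of limma 3.58.1, under R 4.3.3 (4 group means with a shared spread, Benjamini-Hochberg adjustment over all probes). The main call was an adjusted p under 0.05. The 2-fold limit of the methods was counted beside it. The test was tried on simulated data, and its pass mark was replaced once after a first trial. Precision is limited by the small number of arrays.

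Of 50096 identifiers, 24782 were named through a RefSeq table of a later assembly (GRCh38.p14) than the array design, from which only names and the printed promoter windows were taken, and 16955 genes had a probe that passed the filter. The genes named are the 10 members, at most the 3 highest and 3 lowest called genes of each related list and drug contrast, the 3 genes most like PDSS1, and the markers, apart from some that are not reported here. The members and lists were chosen with earlier results of these data known. The alternatives were no filter, a filter over all 8 arrays, normexp with an offset of 50 on median spot and background intensity, quantile normalization, the percentile over bright probes, the authors' table, the two-way ANOVA with Tukey's test named in the methods, only the arrays compared, a replicate block, the median over probes, and each array left out. A slide term could not be fitted, since all arrays lay on 1 slide. The study's other experiments were not analysed here. Figures were drawn with matplotlib 3.10.9.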

Additional observations from a re-analysis of the deposited data

Results flagged for a closer look

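The drug difference of simvastatin against L-778123 differed between OVSAHO and KURAMOCHI for 3 of the 10 genes, as for 27.4% of all genes, by the test of that difference in limma. It was lower in OVSAHO for PDSS1 by a log2 value of -0.53 (adjusted p = 0.0273) and for PDSS2 by -0.67 (adjusted p = 0.00748), and higher for DHDDS by 0.50 (adjusted p = 0.0102). PDSS1 lost its call in 7 of 17 alternatives and DHDDS in 1. The other DHDDS probe gave 0.13 (adjusted p = 0.404). PDSS2 passed in each of its 17 alternatives, with adjusted p of up to 0.0452, although its other probe did not pass. With 2 arrays in each group, single arrays were not tested as outliers.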

How the results depend on the processing

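Under 18 alternatives per drug contrast (17 for the differences between lines), the calls and directions of PDSS1, COQ2, COQ3, COQ8A and COQ9 were the same in both lines, and so was the fall of PDSS2 in OVSAHO. Of all comparisons of a single member with an alternative, 632 kept call and direction, 53 lost the call, 4 gained it and 11 changed sign. The count of members past the test in KURAMOCHI, 8 as reported, was 4 with no filter on dim probes, 4 with only the arrays compared and 5 with the median over probes, and 4 to 7 with each array left out. That for the difference between lines, 3 as reported, was 1 with no filter and 2 to 3 with each array left out, and COQ9 passed there over probes bright on all 8 arrays (adjusted p = 0.0435, limma), with normexp (0.0276) and with the median over probes (0.0349), and COQ7 by the analysis of variance (0.12, adjusted p = 0.0448). The count of probes in OVSAHO was 16222 as reported and 9378 by the methods' analysis of variance with Tukey's test. In KURAMOCHI it was 10588, against 6333 with no filter, 4443 by the analysis of variance and 6343 to 10008 with each array left out. For the drug difference between lines it was 7731, against 3930 with no filter and 4982 to 5976 with each array left out. COQ6 lost its call by the analysis of variance in both lines (adjusted p = 0.0577 and 0.0985). DHDDS in OVSAHO lost it with no filter (0.0635), only the arrays compared (0.0551) and the median over probes (0.0759). PDSS2 lost it between lines with that median (0.066, adjusted p = 0.381). PDSS1 stayed at 2-fold in KURAMOCHI in 13 of 18 alternatives and COQ3 in OVSAHO in 16, with -0.91 under normexp. Of the list genes named, COQ8B and ALG11 in OVSAHO lost their calls in 6 and 9 of 18 alternatives (adjusted p up to 0.123 and 0.212), and in KURAMOCHI ALG11 in 5 (0.158), SQOR and NQO1 in 3 each (0.103 and 0.104), COQ4 in 6 (up to 0.0845), COQ10A in 2 (0.0515) and DPM3 and SRD5A3 in 1 each (0.0808 and 0.0845). With the reported setting included, the genes past the test in KURAMOCHI numbered 0 to 2 of the other coenzyme Q genes, 7 to 14 of the dolichol list and 5 to 13 of the enzymes that use coenzyme Q. The genes of the dolichol list whose drug difference differed between lines numbered 3 to 12. For calls that changed, the cause was not tested.

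Sign changes were confined to differences near 0, apart from PRODH in OVSAHO, which was 0.076 with the median over probes. COQ5 in OVSAHO was 0.024 with quantile normalization and with the authors' table, 0.016 with the percentile over bright probes, 0.014 with the median over probes and -0.064 to 0.063 with each array left out. PDSS2 in KURAMOCHI was 0.070 with the median over probes. The drug difference of COQ6 in OVSAHO minus that in KURAMOCHI was 0.059 with normexp and ranged from -0.10 to 0.067 with each array left out. COQ8A in OVSAHO against KURAMOCHI, averaged over drugs, was -0.010 to 0.048 with each array left out. COQ4 in OVSAHO was -0.038 with normexp and FDXR in KURAMOCHI 0.0092 and 0.010 with quantile normalization and the authors' table. IDI1 in OVSAHO was 0.026 with both of these and 0.0068 with the percentile over bright probes. With single arrays left out, COQ4 in OVSAHO ranged from -0.074 to 0.078, DPM3 from -0.093 to 0.033 and IDI1 from -0.094 to 0.075, and FDXR in KURAMOCHI from -0.090 to 0.035.

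The replicate numbers did not pair the arrays, since deviations of same-numbered arrays correlated at 0.00085 to 0.056. With the replicate block, COQ5 (-0.22, adjusted p = 0.0610) and COQ7 (0.17, adjusted p = 0.0767) lost their calls in KURAMOCHI. The members past the test were then 9 in OVSAHO, 6 in KURAMOCHI, 3 for the drug difference between lines and 9 between lines averaged over drugs. A slide block was not run, since all arrays lay on 1 slide.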
